A study of Mus musculus with 20 samples.

Results

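Imprinted genes are expressed from 1 parental copy, the other copy being silenced by marks set in the egg or sperm. They were examined in RNA-seq libraries of ATDC5, a mouse line of teratocarcinoma origin whose cells turn into chondrocyte-like cells under insulin. The 36 genes were chosen by symbol as known imprinted genes or close companions of them and were grouped by imprinted cluster. Earlier results of these data were known when they were chosen, so the list is not independent of them. Of them 29 had a row among the 27911 genes of the table, and Snrpn, Snurf, H19, Kcnq1ot1, Meg3, Rian and Mirg were not analysed here.

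The libraries came from 3 Kmt2d+/+ clones and 2 Kmt2d-/- clones, each a separate clonal line sampled on day 0 and day 7. In the Kmt2d-/- clones the catalytic SET domain has been deleted from both copies of Kmt2d, which encodes a histone H3 lysine 4 methyltransferase. On day 0 the cells were undifferentiated and grown in standard medium with serum, antibiotics and glutamine. On day 7 they had spent 7 days in the same base with insulin, transferrin and selenium, L-ascorbic acid and beta-glycerophosphate. Clones 1, 2 and 3 of Kmt2d+/+ are named 10-5, 10-7 and 10-8 in the labels, and clones 1 and 2 of Kmt2d-/- are named 10-7 and 96-9. The name 10-7 is thus used in both genotypes. A genotype is represented by 2 or 3 clones, so differences between genotypes and differences between single clones are hard to separate. P-values measure the spread of the libraries around their group means, pooled over both genotypes and days. In the main edgeR fit the day 0 and day 7 libraries of a clone entered as independent, although they are the same lines.

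Imprinted genes lie in clusters that are controlled from a shared imprinting control region, which is methylated on 1 parental allele. Paternally expressed members such as Igf2, Peg3 and Mest are known mostly as growth promoters, and maternally expressed ones such as Cdkn1c, Grb10 and Igf2r mostly as growth restrainers. Many of them are active in fetal mesenchyme and cartilage and decline after birth. The libraries do not separate the parental copies, so the values are totals over both.

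Kmt2d itself stood between 173 and 211 CPM in Kmt2d+/+ libraries and between 113 and 205 CPM in Kmt2d-/- libraries, a gene total that does not measure the deleted part. Each library held 35792773 to 66237188 counts, and mitochondrial genes took 1.98% to 2.93%. The summed level of 12 chondrocyte marker genes was 53.9 to 416.1 CPM, the count relative to the library total after TMM adjustment, in Kmt2d+/+ libraries on day 0 and 601.0 to 1251 CPM on day 7. It was 1975 to 6174 CPM in Kmt2d-/- libraries on day 0 and 26944 to 31305 CPM on day 7. All 12 markers had more than 3 counts in at least 1 library of each group except Kmt2d+/+ on day 0, where 11 did. The summed level of 6 osteoblast markers was 219 to 655 CPM on day 0 and 1571 to 2098 CPM on day 7 in Kmt2d+/+, and 432 to 493 CPM and 1189 to 1564 CPM in Kmt2d-/-. Adipocyte markers summed to between 19.6 and 176 CPM over all libraries, neural markers to between 54.4 and 190.0 CPM, and epithelial markers to at most 2.11 CPM. In bulk libraries fewer cells of a type and less RNA per cell cannot be told apart.

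A filter on low counts kept 15467 genes and 21 of the 29 imprinted genes. The 8 that were removed were Magel2, Usp29, Phlda2, Ascl2, Dlk1, Rtl1, Nap1l5 and Zdbf2. None of these 8 exceeded 15 counts or 0.362 CPM in any library, and Usp29 had 0 counts throughout. In the shallowest library 3 counts correspond to 0.0859 CPM, a limit that covers counting error only. Of the 21 that remained, Zim1, Slc22a18 and Slc38a4 were near this limit, with at most 14, 17 and 37 counts in a library.

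Per kilobase of exon, the highest mean levels over the 10 libraries were those of Gnas (88.4 CPM per kb), Igf2 (81.3), Igf2r (77.1), Peg10 (58.9) and Impact (45.2). Gnas encodes the stimulatory G protein alpha subunit, and Igf2r the receptor that clears the growth factor IGF2. Igf2 was high in the Kmt2d-/- libraries, with 0.569 and 2.08 CPM per kb in Kmt2d+/+ on day 0 and day 7 against 71.8 and 331 in Kmt2d-/-.

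Ndn, Mkrn3 and Peg12 are neighbouring intronless genes of the Prader-Willi and Angelman cluster on chromosome 7, and their promoters are shown because Ndn and Peg12 differed between genotypes while Mkrn3, between them, did not pass. Necdin, the product of Ndn, restrains the cell cycle in differentiating cells; Mkrn3 encodes a ring-finger protein that restrains puberty. Peg12 encodes a member of the FRAT family, which binds GSK3 in Wnt signalling. The sequences run from 250 bases before to 50 bases after the RefSeq start (GRCm38.p6, written 5′ to 3′ on the gene's strand), with each CG in capitals. For Ndn it is chr7:62348027-62348326 on the plus strand, for Mkrn3 chr7:62420104-62420403 on the minus strand, and for Peg12 chr7:62464461-62464760 on the minus strand. The Ndn window lies inside the gene as annotated in GENCODE vM21 (62346569 to 62350262), downstream of its annotated start. The Mkrn3 and Peg12 windows hold the annotated starts.
Ndn: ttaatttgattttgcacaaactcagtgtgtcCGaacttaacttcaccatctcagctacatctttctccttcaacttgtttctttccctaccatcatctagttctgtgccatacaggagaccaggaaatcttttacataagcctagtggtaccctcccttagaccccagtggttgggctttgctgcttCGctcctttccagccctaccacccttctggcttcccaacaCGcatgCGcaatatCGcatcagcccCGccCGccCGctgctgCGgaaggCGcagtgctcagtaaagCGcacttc
Mkrn3: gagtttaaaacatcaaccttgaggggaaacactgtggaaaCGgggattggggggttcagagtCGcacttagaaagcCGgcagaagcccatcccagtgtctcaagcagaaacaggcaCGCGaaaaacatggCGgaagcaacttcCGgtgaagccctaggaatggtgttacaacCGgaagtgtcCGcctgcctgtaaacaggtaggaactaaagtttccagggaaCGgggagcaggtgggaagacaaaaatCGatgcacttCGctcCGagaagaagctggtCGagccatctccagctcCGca
Peg12: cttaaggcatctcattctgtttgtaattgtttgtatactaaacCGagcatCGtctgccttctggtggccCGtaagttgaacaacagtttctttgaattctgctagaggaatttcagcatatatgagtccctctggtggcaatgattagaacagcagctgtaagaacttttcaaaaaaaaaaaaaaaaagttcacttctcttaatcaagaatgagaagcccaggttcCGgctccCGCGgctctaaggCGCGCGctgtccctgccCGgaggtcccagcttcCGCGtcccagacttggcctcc

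The Ndn promoter held 11 CG dinucleotides, that of Mkrn3 15 and that of Peg12 12. Among 32851 promoters of the same length outside chromosome 18, 41.4% had at least as many as Ndn, 34.6% as many as Mkrn3 and 39.6% as many as Peg12. The GC box core GGGCGG, searched on both strands, occurred at 2 positions in the Ndn window and at none in the others, and 35.7% of the 32851 promoters held it. The hexamer TGCCGC, the core of the site bound by the imprint-protecting factor ZFP57, was in none of these windows and in 11.6% of the 32851 promoters. It did occur in windows of Zim1, Igf2, Mest, Copg2, Plagl1, Grb10, Nnat, Nap1l5 and Zdbf2, and in none of the other matched genes. Some of these genes had several windows. Promoters were matched for 24 of the 29 genes, with chromosome 18, which holds Impact, left out.

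Kmt2d-/- clones had almost no Ndn transcript at either day and a lower level of Peg12. On day 7, 2 of the 21 tested imprinted genes were lower and 0 higher in Kmt2d-/-. Of all 15467 genes tested, 0.97% were lower, 0.905% higher and 1.87% changed in either direction. On day 0 the same count was 2 lower and 0 higher, beside 0.976% lower and 1.17% higher among all genes, 2.15% together. Ndn and Peg12 were the genes that passed at each day. At an unadjusted p under 0.05 in edgeR, 4 imprinted genes were higher and 4 lower on day 7, beside 19.9% of all genes in either direction, and 2 were higher and 4 lower on day 0, beside 20.2%. DESeq2 called 1 higher and 3 lower on day 7, beside 10.4% of all genes, and 0 higher and 4 lower on day 0, beside 10.6%. It gave no adjusted p to 2 of the 21 on day 7 and to 3 on day 0, Igf2 among them at both days. With limma-voom 2 were higher and 2 lower on day 7, beside 3.45% of all genes, and 0 higher and 2 lower on day 0, beside 1.72%. The median log2 fold change over the 21 genes was 0.23 on day 7 and -0.13 on day 0, beside -0.02 and 0.01 over all genes tested.

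Ndn (ENSMUSG00000033585, chromosome 7, 62346569 to 62350262, GRCm38) had a level of 67.4, 34.5 and 63.3 CPM in Kmt2d+/+ clones 1, 2 and 3 on day 0 and of 29.9, 23.7 and 39.2 CPM on day 7. In the Kmt2d-/- clones 1 and 2 it stood at 0 and 0.138 CPM on day 0 and at 0 and 0.165 CPM on day 7. Kmt2d-/- clone 1 thus had 0 counts at both days, clone 2 had 6 and 9, and the Kmt2d+/+ libraries had between 1485 and 3002. The genotypes did not overlap at either day. Among all genes 37.7% did not overlap on day 7, 17.9% higher and 19.8% lower in Kmt2d-/-, and 36.9% on day 0, 18.6% higher and 18.3% lower. Gm32061 is annotated across Ndn on the opposite strand.

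The log2 fold change of Ndn was -8.49 (SE 1.00, edgeR adjusted p = 0.0101) on day 7 and -9.57 (SE 1.06, edgeR adjusted p = 0.00804) on day 0. Against a limit of 3 counts in Kmt2d-/- clone 1, the Kmt2d+/+ mean was at least 536-fold higher on day 7 and at least 760-fold higher on day 0. Against Kmt2d-/- clone 2 alone, the log2 fold change was -7.53 on day 7 (edgeR adjusted p = 0.0244) and -8.62 on day 0 (0.0183). Without Kmt2d+/+ clone 1 the edgeR adjusted p was 0.0516 on day 7 and 0.0595 on day 0, and without Kmt2d+/+ clone 3 it was 0.106 and 0.0843.

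Peg12 (chromosome 7, 62461871 to 62464510) starts 117.9 kb from the annotated start of Ndn. Its level in Kmt2d+/+ clones 1, 2 and 3 was 82.9, 76.8 and 85.2 CPM on day 0 and 44.7, 38.0 and 39.5 CPM on day 7. In Kmt2d-/- clones 1 and 2 it was 28.4 and 25.6 CPM on day 0 and 26.0 and 23.2 CPM on day 7. The gene was thus still transcribed in the clones with almost no Ndn transcript, and the genotypes did not overlap at either day. The difference was 3.02-fold on day 0 (log2 value -1.59, SE 0.15, edgeR adjusted p = 0.00483) and 1.65-fold on day 7 (-0.73, SE 0.15, edgeR adjusted p = 0.0479). The day 7 call was close to the threshold and passed in 6 of 16 alternative settings, with adjusted p from 2.02e-04 to 0.240. The day 0 call passed in 13 of 16, failing with only the groups compared (edgeR adjusted p = 0.0566) and without Kmt2d+/+ clone 3 or without Kmt2d-/- clone 2 (edgeR adjusted p = 0.0808 and 0.0613).

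The other genes of this cluster did not pass. Mkrn3 (62417593 to 62420139), which lies between Ndn and Peg12, stood at 2.72, 1.51 and 4.03 CPM in Kmt2d+/+ clones on day 0 and 2.55, 1.68 and 2.75 CPM on day 7. The Kmt2d-/- clones stood at 1.30 and 1.81 CPM on day 0 and at 1.87 and 1.82 CPM on day 7, so the genotypes overlapped. Its log2 fold change was -0.34 on day 7 and -0.82 on day 0 (edgeR adjusted p = 0.747 and 0.362). Magel2, the gene between Ndn and Mkrn3 that is mutated in Schaaf-Yang syndrome, had at most 3 counts in any library.

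Ube3a, the ubiquitin ligase gene of Angelman syndrome, ends 3.04 Mb before Ndn and is expressed from both copies outside neurons. In Kmt2d+/+ clones its level was 66.4, 48.0 and 51.6 CPM on day 0 and 45.7, 43.5 and 46.4 CPM on day 7. The corresponding Kmt2d-/- values were 39.4 and 29.6 CPM on day 0 and 25.7 and 27.6 CPM on day 7, below every Kmt2d+/+ clone. The log2 fold change was -0.76 on day 7 and -0.68 on day 0 (edgeR adjusted p = 0.0776 and 0.0919), and it passed in DESeq2 alone of 16 settings (adjusted p = 0.00943 and 0.0198). Snhg14 overlaps Ube3a on the opposite strand, and whether counting used strand is not given in the sources used here.

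**Figure D1:**
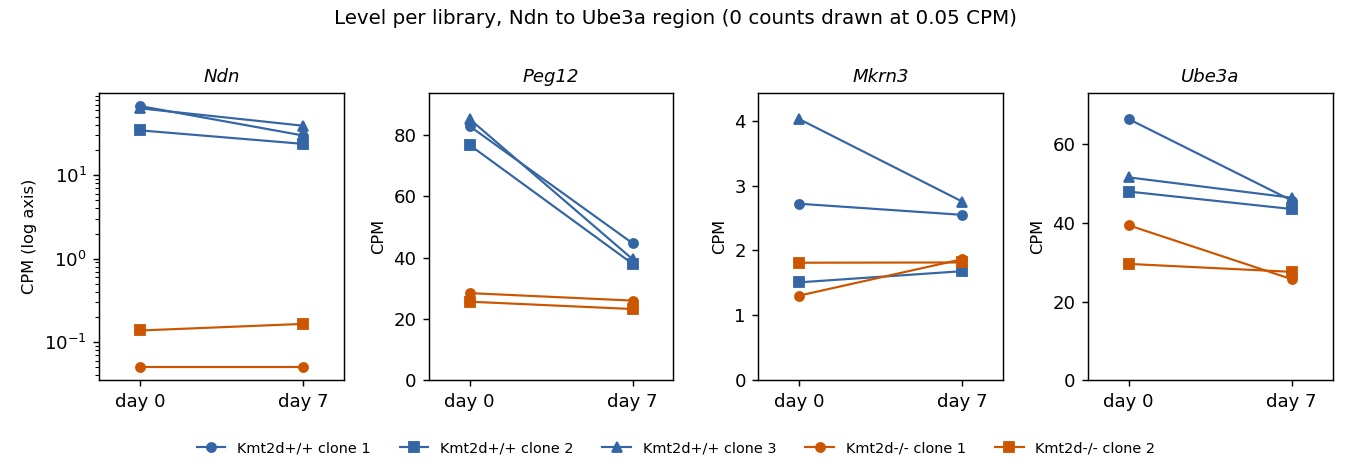
Level (CPM) of Ndn, Peg12, Mkrn3 and Ube3a on day 0 and day 7, with 1 line per clone, blue for Kmt2d+/+ and orange for Kmt2d-/-; the Ndn axis is logarithmic, with 0 counts drawn at 0.05 CPM, and the other axes start at 0. Ndn lies between 23.7 and 67.4 CPM in Kmt2d+/+ and at or under 0.165 CPM in Kmt2d-/-, while Mkrn3 overlaps between genotypes.

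The stretch of chromosome 7 around Ndn was compared with it. Of 45 tested genes outside the list that start within 10 Mb of Ndn, edgeR called 0 in either direction at either day, with 18 at an unadjusted p under 0.05 on day 7 and 15 on day 0, beside 19.9% and 20.2% of all genes. DESeq2 called 7 of them lower on day 7 and 9 on day 0, beside 6.09% and 5.65% of all genes. With limma-voom 1 and 0 of them were lower, beside 231 and 130 of all 15467 genes. The share of these neighbours that was called lower in DESeq2 or passed without adjustment was thus above that of all genes at both days. Their median log2 fold change was -0.35 on day 7 and -0.34 on day 0, and 30 of 45 were negative at each day. The most negative were Chrna7 on day 7 (-3.95) and Gabrg3 on day 0 (-3.41), which code for neurotransmitter receptor subunits; they were chosen after their values were seen. The median level of the 45 genes, on the log2 scale around their mean over libraries, was lowest in Kmt2d-/- clone 2. It was -0.19 on day 0 and -0.28 on day 7 there, and -0.08 and 0.03 in Kmt2d-/- clone 1. In Kmt2d+/+ clones 1, 2 and 3 it was 0.06, 0.12 and 0.0025 on day 0 and 0.21, 0.12 and 0.06 on day 7. When the median level of these surrounding genes was subtracted in each library, Ndn kept a log2 fold change of -8.20 on day 7 and still passed. Under the same subtraction Peg12 had -0.47 on day 7 and no longer passed, and -1.41 on day 0, where it passed. Ube3a, with the median of 49 genes around its own start subtracted, had -0.39 and -0.36.

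**Figure D2:**
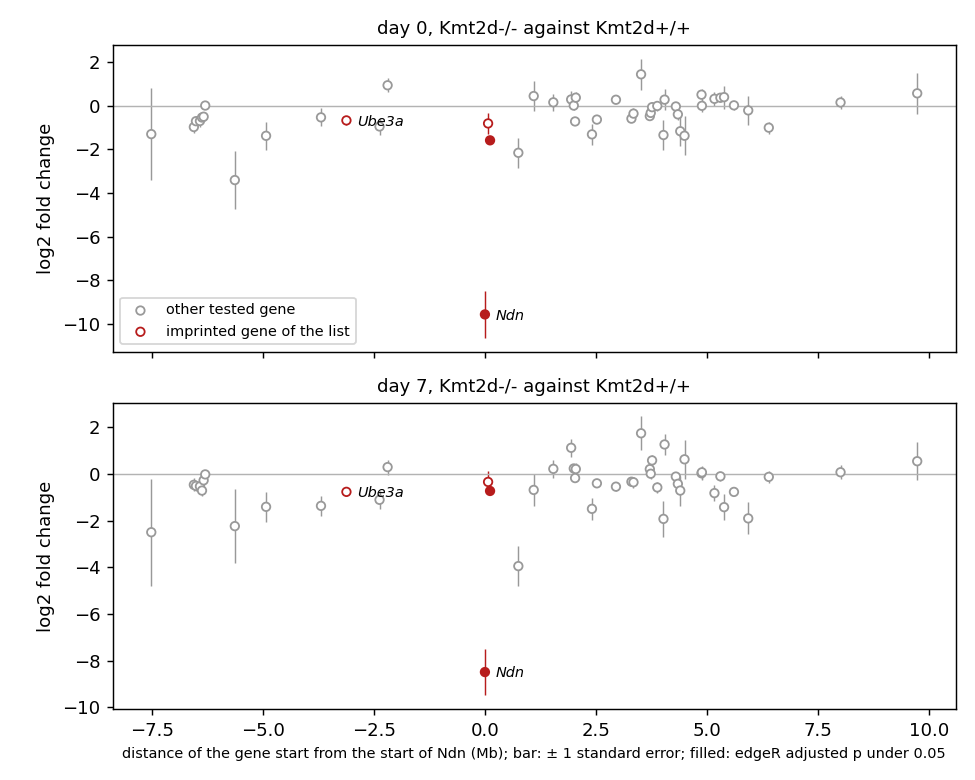
Log2 fold change of Kmt2d-/- against Kmt2d+/+ (bars, 1 standard error) on day 0 and day 7 for genes within 10 Mb of Ndn, against the distance between gene starts in Mb; red marks the imprinted genes of the list, and filled symbols passed in edgeR. Ndn, at -9.57 and -8.49, is far below the 45 other tested genes, of which the lowest is at -3.95.

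Igf2 had the widest difference in the other direction. Igf2 (chromosome 7, 142650766 to 142666816) encodes the fetal growth factor IGF2. Its level was 0.0573, 9.54 and 0.169 CPM in Kmt2d+/+ clones on day 0 and 433.1 and 389 CPM in Kmt2d-/- clones. On day 7 it was 1.102, 33.1 and 1.45 CPM against 2968 and 820.0 CPM. Every Kmt2d-/- library exceeded every Kmt2d+/+ library of its day, by at least 40.8-fold on day 0 and 24.8-fold on day 7. Kmt2d+/+ clone 2 stood apart from clones 1 and 3, with 411 counts on day 0 where they had 2 and 8.

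The log2 fold change of Igf2 was 7.31 (SE 2.07, edgeR adjusted p = 0.100) on day 7 and 6.97 (SE 2.05, edgeR adjusted p = 0.103) on day 0, and neither passed. Without Kmt2d+/+ clone 2 it was 10.53 and 11.71, and both passed (edgeR adjusted p = 0.00883 and 0.00840). With the clone as a random block in limma-voom it was 8.68 and 9.63 and passed at both days (adjusted p = 0.0102 and 0.0484). In all, Igf2 passed in 3 of 15 alternative settings on day 7 and in 2 of 15 on day 0. DESeq2 gave Igf2 no adjusted p at either day. Of the 12 chondrocyte markers, 12 had a positive fold change in Kmt2d-/- on each day, with 2 passing on day 7 and 1 on day 0 in edgeR, and their part in the level of Igf2 was not tested. Igf2os overlaps Igf2 on the opposite strand.

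Plagl1 encodes a zinc-finger factor that is known to regulate other imprinted genes, Igf2 and Cdkn1c among them. On day 0 the Kmt2d+/+ clones had 75.3, 74.8 and 92.1 CPM and the Kmt2d-/- clones 62.9 and 73.0 CPM. On day 7 the values were 118.4, 135.0 and 206.6 CPM against 302.6 and 377.3 CPM. The genotype difference on day 7 was 2.22-fold (log2 fold change 1.15, SE 0.24) and missed the threshold (edgeR adjusted p = 0.0519). The day 7 difference passed in only 4 of 16 alternative settings, DESeq2 and limma-voom among them. Another was the clone as a random block (1.18, limma-voom adjusted p = 0.0340). With the level of the surrounding genes subtracted it was 1.51 and passed. On day 0 it was -0.25 (edgeR adjusted p = 0.616).

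Peg3, a paternally expressed zinc-finger gene, varied widely between the Kmt2d-/- clones. In Kmt2d+/+ clones it stood at 16.6, 2.14 and 7.42 CPM on day 0 and 73.9, 23.3 and 18.1 CPM on day 7. In Kmt2d-/- clones 1 and 2 it stood at 72.4 and 2.59 CPM on day 0 and 601.3 and 77.1 CPM on day 7. Kmt2d-/- clone 1 was thus 28.0-fold above clone 2 on day 0, and the genotypes overlapped at that day. The log2 fold change was 3.14 on day 7 (SE 1.32, edgeR adjusted p = 0.231) and 2.11 on day 0 (SE 1.30, edgeR adjusted p = 0.406). The median of 108 tested genes within 10 Mb was also high in Kmt2d-/- clone 1, at 0.43 and 0.53 on the log2 scale above its mean over libraries, against -0.04 and -0.05 in clone 2. Less the regional difference, the log2 fold change of Peg3 on day 7 was 2.75.

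Impact, a regulator of translation under amino acid shortage, lay lower in Kmt2d-/- clones. It stood at 429.5, 224.6 and 306.1 CPM in Kmt2d+/+ clones on day 0 and 270.9, 227.0 and 251.2 CPM on day 7. Both Kmt2d-/- clones were lower, at 141 and 177.4 CPM on day 0 and 156.9 and 136.0 CPM on day 7. The groups did not overlap, but the log2 fold changes of -1.01 on day 0 and -0.77 on day 7 did not pass (edgeR adjusted p = 0.0767 and 0.148). The surrounding region on chromosome 18, with 61 tested genes, had a difference of -0.66 and -0.63 on the same scale, and with the regional level subtracted the day 0 value for Impact was -0.30 (edgeR adjusted p = 0.423). The day 0 difference passed in DESeq2 (-1.03, adjusted p = 0.00577) and without Kmt2d+/+ clone 2 (-1.21, edgeR adjusted p = 0.0306). That left-out clone had a regional median of -0.08 on day 0, on the log2 scale around the mean over libraries. Clone 1 of its genotype stood at 0.49 and clone 3 at 0.47, with Kmt2d-/- clone 1 at -0.33 and clone 2 at -0.40. Leaving it out thus also widened the regional difference, whose part in this pass was not tested.

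Gnas stood at 802.6, 812.1 and 790.8 CPM in Kmt2d+/+ clones on day 0 and 1032, 865.1 and 856.9 CPM on day 7. Both Kmt2d-/- clones were higher, at 1229.9 and 955.4 CPM on day 0 and 1269 and 1271 CPM on day 7. These groups did not overlap, and the log2 fold changes of 0.45 and 0.47 did not pass (edgeR adjusted p = 0.161 and 0.149). Of the 21 tested genes, 13 had genotypes that did not overlap on day 7, 8 higher and 5 lower in Kmt2d-/-, and 8 on day 0, 3 higher and 5 lower. The shares of all genes were 37.7% and 36.9%, so the count on day 0 was near the background. Between -1.17 and 1.80 lay the day 7 log2 fold changes of Mkrn3, Zim1, Cdkn1c, Slc22a18, Mest, Copg2, Peg10, Sgce, Asb4, Grb10, Igf2r, Nnat and Slc38a4, none of which passed.

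**Figure D3:**
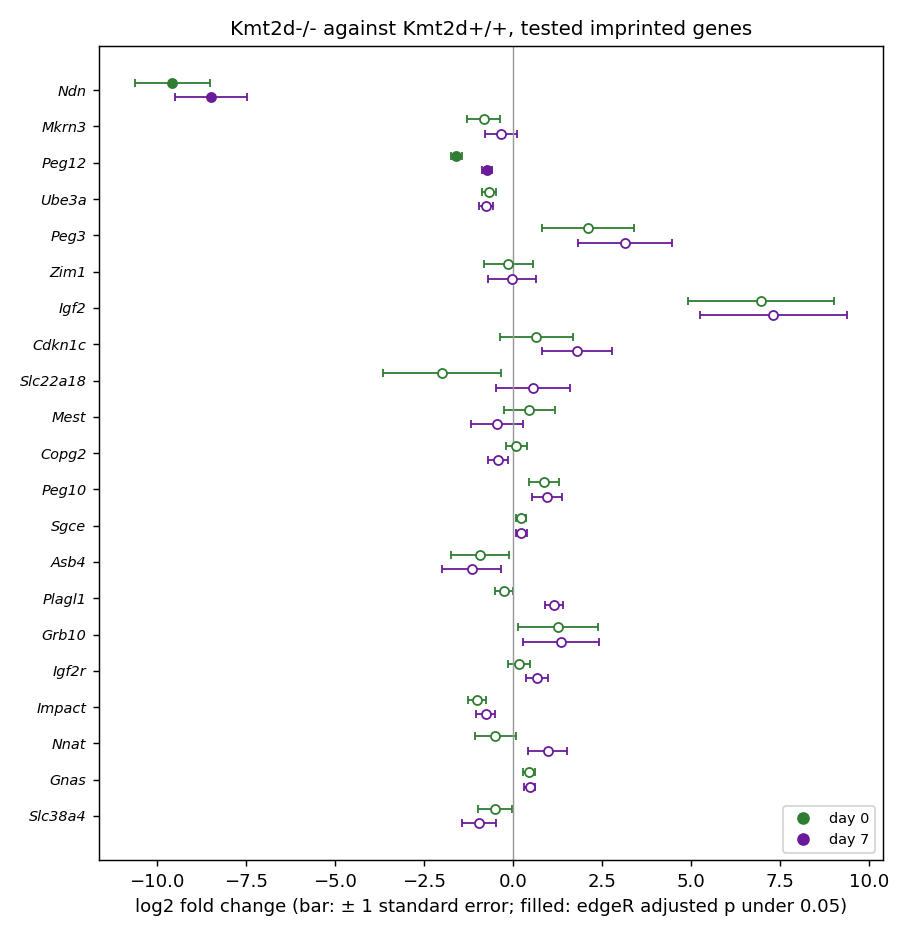
Log2 fold change of Kmt2d-/- against Kmt2d+/+ for the 21 tested imprinted genes (rows) on day 0 (green) and day 7 (purple), with bars of 1 standard error and filled symbols for an edgeR adjusted p under 0.05. Ndn and Peg12 carry filled symbols at both days, and Igf2 is at 6.97 and 7.31 with a standard error above 2.

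Differentiation was compared next within each genotype. Between the days 4 of 12 chondrocyte and 4 of 6 osteoblast markers also rose in Kmt2d+/+ and 2 and 1 in Kmt2d-/- (edgeR), and their part in the changes below was not tested. In Kmt2d+/+ clones 3 imprinted genes rose from day 0 to day 7, Cdkn1c, Mest and Plagl1, and 2 fell, Peg12 and Peg10. Of all genes 3.05% rose and 2.04% fell, 5.08% together. In Kmt2d-/- clones 1 rose, Plagl1, and 0 fell, beside 0.672% and 0.595% of all genes, 1.27% together. At an unadjusted p under 0.05 in edgeR, 6 were higher and 3 lower on day 7 in Kmt2d+/+, beside 24.7% of all genes, and 6 were higher and 1 lower in Kmt2d-/-, beside 14.8%. DESeq2 called 4 higher and 3 lower in Kmt2d+/+, beside 14.7% of all genes, and 4 higher and 1 lower in Kmt2d-/-, beside 6.46%. It gave no adjusted p to 2 of the 21 in Kmt2d+/+ and to 3 in Kmt2d-/-. With limma-voom 2 were higher and 2 lower in Kmt2d+/+, beside 5.08% of all genes, and 1 higher and 0 lower in Kmt2d-/-, beside 1.16%. The groups did not overlap for 12 of 21 genes in each genotype, with 8 higher and 4 lower on day 7 in Kmt2d+/+ and 10 higher and 2 lower in Kmt2d-/-. Among all genes 30.9% did not overlap in Kmt2d+/+, 16.2% higher and 14.7% lower, and 44.8% in Kmt2d-/-, 22.9% higher and 21.9% lower. The median log2 fold change of the 21 genes was 0.20 in Kmt2d+/+ and 0.22 in Kmt2d-/-, beside 0.03 and -0.0030 over all genes.

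The same clones were sampled at both days. With a term for each clone as the replicate block, 10 imprinted genes passed in Kmt2d+/+, 6 higher and 4 lower, and 5 passed in Kmt2d-/-, 4 higher and 1 lower. With the same term 18% of all genes passed in Kmt2d+/+ and 5.57% in Kmt2d-/-. The 5 and 1 imprinted genes called without that term were called with it too. In Kmt2d+/+ it added Ndn (log2 fold change -0.80, edgeR adjusted p = 0.0362), Peg3 (2.25, 0.0328), Igf2 (2.37, 0.0306), Copg2 (0.63, 0.0315) and Nnat (-1.74, 0.0412). In Kmt2d-/- it added Peg3 (3.91, 0.0305), Cdkn1c (5.63, 0.0492), Mest (2.61, 0.0412) and Peg10 (-2.08, 0.0432).

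Cdkn1c encodes p57, a cyclin-dependent kinase inhibitor needed for growth-plate chondrocytes to leave the cell cycle. It stood at 0.916, 3.69 and 2.91 CPM in Kmt2d+/+ clones on day 0 and 115.0, 13.6 and 20.5 CPM on day 7. Among Kmt2d-/- clones it went from 6.57 and 1.35 CPM to 256.2 and 89.3 CPM. All 5 clones were higher on day 7, by 125-fold, 3.69-fold and 7.04-fold in Kmt2d+/+ clones 1, 2 and 3 and by 39.0-fold and 66.0-fold in Kmt2d-/- clones 1 and 2. The fitted log2 change was 4.30 in Kmt2d+/+ (SE 1.03, edgeR adjusted p = 0.0484) and 5.45 in Kmt2d-/- (SE 1.32, edgeR adjusted p = 0.0910). Without Kmt2d+/+ clone 1 the change in Kmt2d+/+ was 2.37 and did not pass (edgeR adjusted p = 0.250), and the call also ended without any other single clone, with adjusted p from 0.0574 to 0.269.

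Mest, which encodes a hydrolase-like protein of growing mesoderm, stood at 17.7, 27.7 and 36.5 CPM in Kmt2d+/+ clones on day 0 and 84.3, 236 and 379.3 CPM on day 7. Among Kmt2d-/- clones it went from 63.4 and 11.9 CPM to 203.5 and 140.5 CPM. The groups were separate in both genotypes. It rose 8.54-fold in Kmt2d+/+ (log2 fold change 3.09, SE 0.70, edgeR adjusted p = 0.0425), and the change in Kmt2d-/- was 2.19 (SE 0.82, edgeR adjusted p = 0.254). The Kmt2d+/+ call ended without any 1 of the 3 Kmt2d+/+ clones (edgeR adjusted p = 0.102 to 0.281). With any 1 clone left out, the log2 change of Mest in Kmt2d+/+ lay between 2.80 and 3.26. Copg2, which overlaps the end of Mest on the opposite strand, had a log2 change of 0.66 in Kmt2d+/+ (edgeR adjusted p = 0.156) and went from 70.0, 66.1 and 72.2 CPM to 107.8, 82.8 and 138.2 CPM. Copg2 in Kmt2d-/- clones went from 56.4 and 91.7 CPM to 63.6 and 99.7 CPM.

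Plagl1 was higher on day 7 in all 5 clones. The ratio of day 7 to day 0 was 1.57, 1.80 and 2.24 in Kmt2d+/+ clones and 4.81 and 5.17 in Kmt2d-/- clones. The log2 change was 0.93 in Kmt2d+/+ (SE 0.22, edgeR adjusted p = 0.0486) and 2.32 in Kmt2d-/- (SE 0.28, edgeR adjusted p = 0.0170). The Kmt2d+/+ call ended without any single clone (edgeR adjusted p = 0.0791 to 0.265), and the Kmt2d-/- call without either Kmt2d-/- clone or without Kmt2d+/+ clone 3 (0.0658 to 0.210).

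Peg10, a retrotransposon-derived gene needed for the placenta, fell in Kmt2d+/+ clones, and its neighbour Sgce did not pass. Peg10 stood at 540.5, 307.4 and 600.8 CPM in Kmt2d+/+ clones on day 0 and 59.2, 109.5 and 137.5 CPM on day 7. For Kmt2d-/- clones the change was from 571.1 and 1204 CPM to 172.5 and 224 CPM. All 5 clones were lower on day 7, by 2.81-fold to 9.13-fold. The log2 change was -2.24 in Kmt2d+/+ (SE 0.40, edgeR adjusted p = 0.0249) and -2.16 in Kmt2d-/- (SE 0.49, edgeR adjusted p = 0.0779). The Kmt2d+/+ call ended without Kmt2d+/+ clone 1 or 3 (edgeR adjusted p = 0.154 and 0.228). With any 1 clone left out, the log2 change in Kmt2d+/+ lay between -2.54 and -1.88.

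Sgce, the epsilon-sarcoglycan gene, starts 99 bases from the start of Peg10 on the opposite strand. Its levels in Kmt2d+/+ clones were 163.7, 147.4 and 169.1 CPM on day 0 and 181.8, 156 and 186.5 CPM on day 7. The Kmt2d-/- values were 203.9 and 169.7 CPM and then 197 and 213.1 CPM. The log2 change was 0.13 in each genotype (SE 0.14 and 0.17, edgeR adjusted p = 0.610 and 0.790). The difference between the changes of Peg10 and Sgce was not tested.

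Peg12 fell in Kmt2d+/+ clones, by 1.86-fold, 2.02-fold and 2.16-fold in clones 1, 2 and 3. In Kmt2d-/- clones, where it was already lower, the day 0 level was 1.09 and 1.103 times the day 7 level. The fitted fall was 2.01-fold in Kmt2d+/+ (log2 SE 0.13, edgeR adjusted p = 0.0124), and the log2 change in Kmt2d-/- was -0.14 (SE 0.16, edgeR adjusted p = 0.777). The Kmt2d+/+ call ended without Kmt2d+/+ clone 1 or 3 (edgeR adjusted p = 0.0990 and 0.228). The log2 change in Kmt2d+/+ lay between -1.07 and -0.97 with any 1 clone left out. Ndn was lower on day 7 in each of the 3 Kmt2d+/+ clones, by 2.26-fold, 1.45-fold and 1.62-fold, and passed only with the clone term described above.

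The growth-related genes that did not pass without the clone term are given by value. Igf2 was higher on day 7 in all 5 clones, with log2 changes of 1.86 in Kmt2d+/+ and 2.20 in Kmt2d-/- (edgeR adjusted p = 0.525 and 0.693). Igf2r went from 356.1, 612.4 and 411 CPM to 909.6, 664.3 and 730.6 CPM in Kmt2d+/+ and from 635.2 and 404.0 CPM to 1525 and 929.3 CPM in Kmt2d-/-. Its log2 changes were 0.74 and 1.24 (edgeR adjusted p = 0.1503 and 0.134), and the change in Kmt2d-/- passed in DESeq2. Peg3 was higher on day 7 in all 5 clones, by 2.43-fold to 29.8-fold.

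Grb10, an adaptor that restrains insulin and IGF1 receptor signalling, was low. It stood at 0.0859, 1.44 and 0.0211 CPM in Kmt2d+/+ clones on day 0 and 5.35, 3.14 and 3.85 CPM on day 7. For Kmt2d-/- clones the change was from 1.09 and 1.40 CPM to 10.8 and 9.88 CPM. The log2 changes were 2.98 and 3.06 (edgeR adjusted p = 0.129 and 0.316), and without Kmt2d+/+ clone 2 they were 6.45 and 3.06 and both passed (0.0118 and 0.0398). On day 0 Kmt2d+/+ clones 1, 2 and 3 had 3, 62 and 1 counts. The Kmt2d+/+ day 0 level without clone 2 thus rests on counts at or under the limit of 3, and the size of 6.45 is uncertain. The Kmt2d+/+ change also passed with all clones in DESeq2 (2.99, adjusted p = 0.0155) and limma-voom (4.60, adjusted p = 0.0332). Between genotypes on day 0 the log2 fold change of Grb10 was 1.26 (edgeR adjusted p = 0.571). Without Kmt2d+/+ clone 2 it was 4.57 (edgeR adjusted p = 0.0216), on the same low Kmt2d+/+ counts. Nnat, a membrane proteolipid gene, stood at 1.17, 0.72 and 1.16 CPM in Kmt2d+/+ clones on day 0 and 0.526, 0.265 and 0.177 CPM on day 7. Nnat in Kmt2d-/- clones stood at 0.894 and 0.550 CPM and then 0.789 and 0.477 CPM, and the log2 changes were -1.65 and -0.19 (edgeR adjusted p = 0.0893 and 0.936). Blcap overlaps Nnat on the opposite strand. Gnas, Impact, Ube3a, Mkrn3, Asb4, Zim1, Slc22a18 and Slc38a4 did not pass in either genotype.

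**Figure D4:**
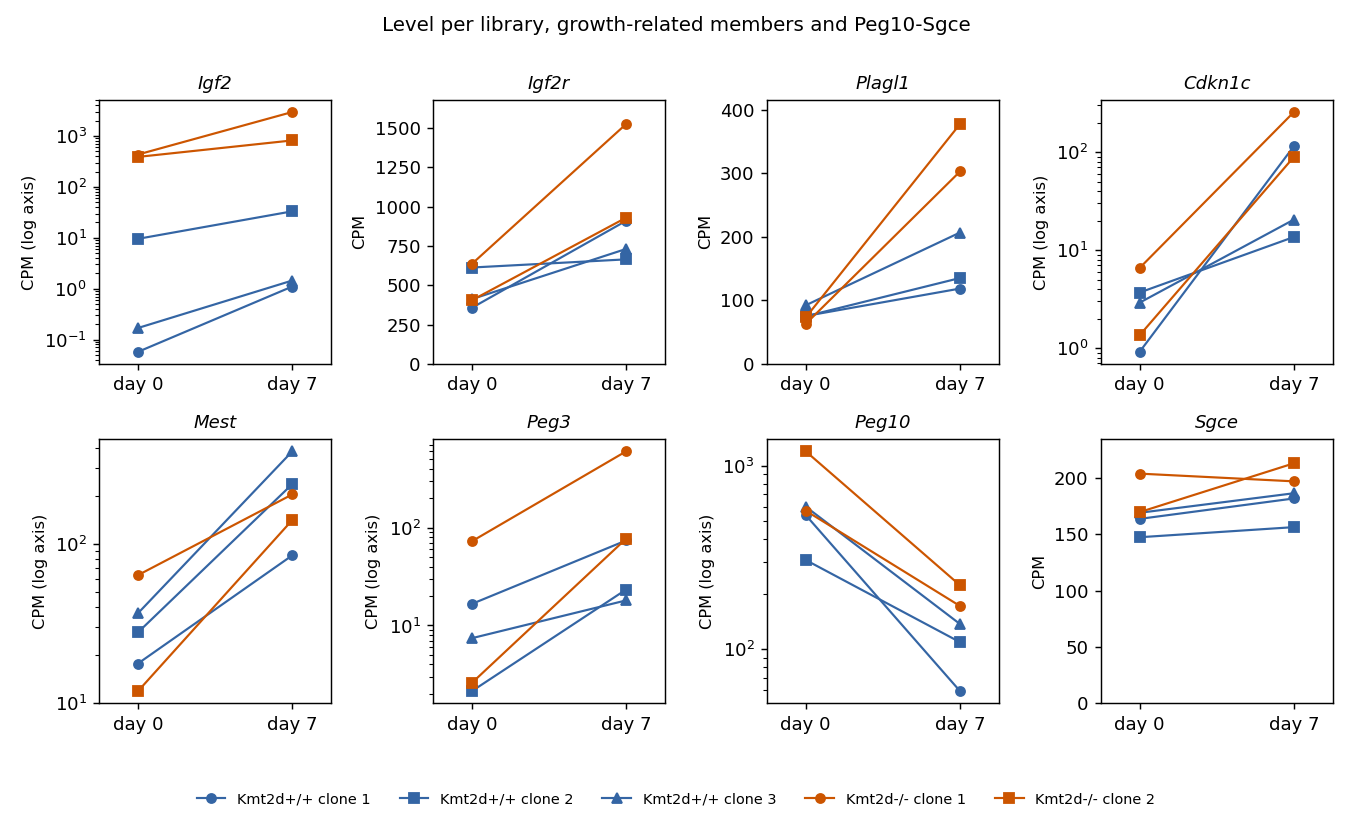
Level (CPM) of 8 imprinted genes on day 0 and day 7, with 1 line per clone, blue for Kmt2d+/+ and orange for Kmt2d-/-; axes are logarithmic where marked and otherwise start at 0. Cdkn1c, Mest, Plagl1, Peg3, Igf2 and Igf2r are higher on day 7 in all 5 clones and Peg10 lower in all 5, while the Igf2 lines of the genotypes stay apart at both days.

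**Figure D5:**
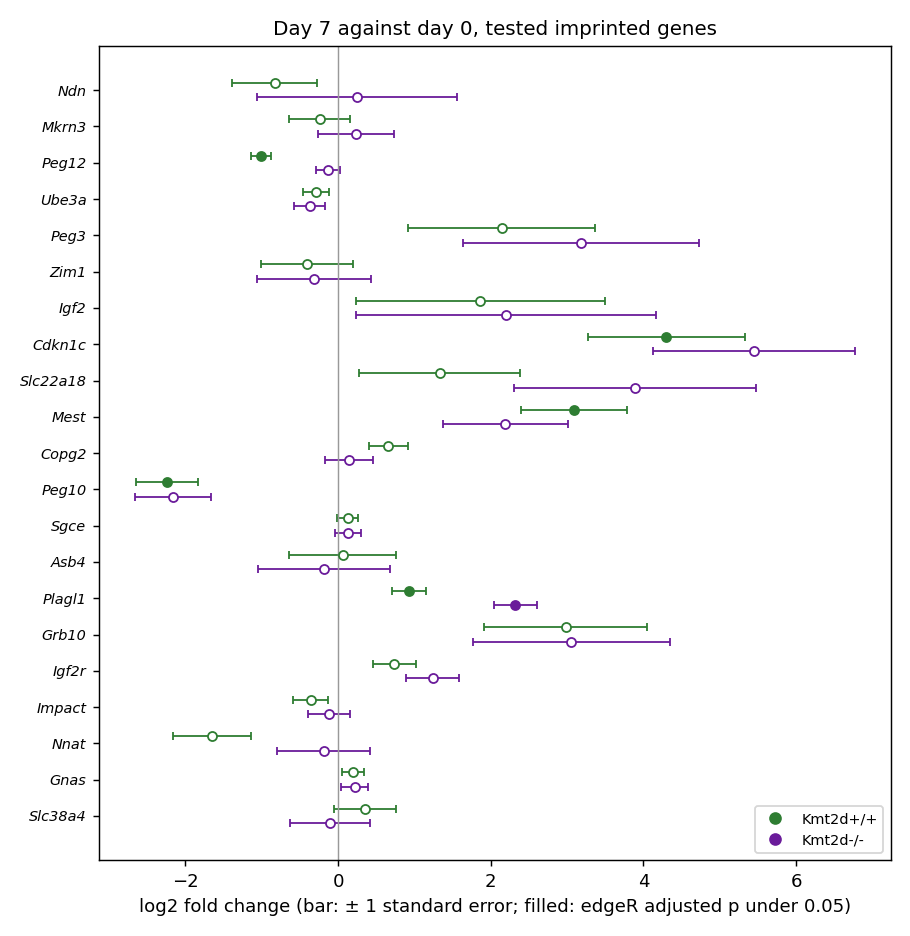
Log2 fold change of day 7 against day 0 for the 21 tested imprinted genes (rows) in Kmt2d+/+ (green) and Kmt2d-/- (purple), with bars of 1 standard error and filled symbols for an edgeR adjusted p under 0.05 in the fit without clone terms. Plagl1 is filled in both genotypes, at 0.93 and 2.32, and Peg12 in Kmt2d+/+ alone.

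The 2 day effects were set against each other in 1 interaction test. No imprinted gene passed in edgeR, nor did any of the 15467 genes (0%). At an unadjusted p under 0.05 there were 2 imprinted genes, with a difference of log2 changes of 1.40 for Plagl1 and 0.87 for Peg12. Of all genes 236 were positive and 332 negative at that level, 3.67% together. DESeq2 called 1 imprinted gene, Peg12 (adjusted p = 0.0430), of 27 genes in all (0.175%), and limma-voom called 0. For 3 of the 21 DESeq2 gave no adjusted p here. The unequal changes of Peg12 and Plagl1 between genotypes are given as values that did not pass in edgeR. The day effects and the genotype effects share libraries and are not independent.

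Other imprinted genes, from a second list, were not called by edgeR in any comparison. Of 43 listed, 36 were in the table and 27 were tested, and edgeR called 0 in each of the 5 comparisons. At an unadjusted p under 0.05 there were 4 on day 7 and 7 on day 0 between genotypes, 4 between days in Kmt2d+/+, 4 in Kmt2d-/- and 0 in the interaction, beside 19.9%, 20.2%, 24.7%, 14.8% and 3.67% of all genes. DESeq2 called 2 of them on day 7 and 2 on day 0, 4 between days in Kmt2d+/+, 1 in Kmt2d-/- and 0 in the interaction, beside 10.4%, 10.6%, 14.7%, 6.46% and 0.175% of all genes. In the same order it gave no adjusted p to 0, 2, 0, 2 and 3 of them. With limma-voom 2, 0, 0, 0 and 0 were called, beside 3.45%, 1.72%, 5.08%, 1.16% and 0%. Their median log2 fold change between genotypes was -0.03 on day 7 and -0.02 on day 0. The most abundant by CPM was Cd81, a tetraspanin gene, at 81.1 to 227.6 CPM.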

How the data were processed

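Poly(A) RNA libraries of 10 clone and day combinations were each run on 2 flow cells. The authors deposited estimated counts per gene, not normalized, made with Salmon on GRCm38 per the submitters' processing notes. Tool versions, annotation and strand use: not given in the sources used here. All 20 value columns matched a sample. The runs were summed and rounded. Symbols and positions came from GENCODE vM21, and promoters from RefSeq (GRCm38.p6).

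One edgeR 4.0.16 model (R 4.3.3) of the 4 group means used filterByExpr and TMM. Its quasi-likelihood test left 6 residual degrees of freedom. P-values were Benjamini-Hochberg adjusted over 15467 genes with a threshold of 0.05. Alternatives were DESeq2 1.42.0, limma-voom (limma 3.58.1), other scaling, filters and runs, only the groups compared, the regional level subtracted, a clone block, and each clone left out.

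The clone numbers pair day 0 with day 7 because the same cell lines were sampled. Deviations from the group means correlated at 0.363 to 0.571 within a clone. The genes and lists were chosen with earlier results of these data known. Values in every library are given for members that passed in any setting or were the most abundant of their cluster.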

Additional observations from a re-analysis of the deposited data

How the results depend on the processing

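Of the imprinted genes' results that passed in some setting, 393 alternative values stayed on the same side of the threshold, 46 lost it, 33 gained it and 0 reversed. The 393 include results that failed in the main fit and failed again. By definition the 46 losses concern results called in the main fit. Such results kept the call in 6 of 16 alternatives (Peg12 between genotypes on day 7) to 14 of 16 (Ndn between genotypes at each day). The number called between genotypes at day 7 was 2, against 4 in DESeq2, 4 in limma-voom, 4 with the clone as a random replicate block, and 1 with no filter, with the first run, with the second run or with only the groups compared. At day 0 it was 2, against 4 in DESeq2 and 1 with only the groups compared. Between days in Kmt2d+/+ it was 5, against 3 in the second run, 3 with only the groups compared and 10 with the replicate block of clone terms. In Kmt2d-/- it was 1, against 5 in DESeq2, 0 with only the groups compared and 5 with the replicate block. In the interaction it was 0, against 1 in DESeq2 and 0 with the replicate block. Leaving out 1 clone gave 0 to 2 at day 7, 0 to 5 at day 0, 0 to 3 in Kmt2d+/+, 0 to 2 in Kmt2d-/- and 0 in the interaction. The cause of these shifts was not tested.

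Over all genes the count at day 7 was 290, against 1605 in DESeq2, 533 in limma-voom, 442 with the random block, 184 in the second run and 55 with only the groups compared. At day 0 it was 332, against 1632, 193 with the random block and 9 with only the groups compared. Between days it was 786 in Kmt2d+/+, against 2280 in DESeq2 and 2789 with clone terms, and 196 in Kmt2d-/-, against 999, 862 and 0 with only the groups compared. Leaving out 1 clone gave 10 to 272 at day 7, 10 to 912 at day 0, 0 to 862 in Kmt2d+/+ and 0 to 183 in Kmt2d-/-. With 2 clones in Kmt2d-/-, 1 is left when the other is removed, and it is assumed to vary like the other groups. Kmt2d-/- values of Ndn rest on 15 counts in all, so depth limits only a lower bound there.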

Other observations

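Factors that keep imprints in place were also read. Of 18 listed genes 16 were tested. Trim28, the corepressor that acts with ZFP57, was the 1 gene edgeR called at day 7, beside 1.87% of all genes. It was higher in Kmt2d-/-, at 205.4 and 196.3 CPM against 109.6, 112.0 and 116.4 CPM, a log2 fold change of 0.83 (SE 0.15, edgeR adjusted p = 0.0363). At day 0 it stood at 227.1 and 268.2 CPM against 181.7, 141.4 and 158.7 CPM (0.62, edgeR adjusted p = 0.0645). Of the 16, DESeq2 called 1 higher and 1 lower at day 7 and 3 higher at day 0, beside 10.4% and 10.6% of all genes. At an unadjusted p under 0.05 in edgeR 2 were higher and 1 lower at day 7, and 3 higher at day 0, beside 19.9% and 20.2%. With limma-voom 1 was higher at day 7 and 0 were called at day 0, beside 3.45% and 1.72%. Between days in Kmt2d+/+ clones, the demethylase genes Tet1 (2.71, edgeR adjusted p = 0.0147) and Tet2 (1.83, 0.0194) and the methyltransferase gene Dnmt3a (0.67, 0.0479) rose, 3 of 16 beside 5.08% of all genes. In Kmt2d-/- clones 0 of the 16 passed in edgeR, beside 1.27% of all genes, with 3 at an unadjusted p under 0.05, 3 called in DESeq2 and 0 in limma-voom. The difference of the day effects between genotypes was called for 0 of the 16 in edgeR, DESeq2 and limma-voom, with 0 at an unadjusted p under 0.05 in edgeR. Dnmt1, the most abundant of the list by CPM, lay between 255.4 and 365.7 CPM.

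Around the near-silent Dlk1 and Rtl1 genes on chromosome 12, all 8 tested neighbours within 1 Mb had a positive log2 fold change in Kmt2d-/- at both days, with a median of 1.11 at day 7 and 0.88 at day 0. Of them 4 passed as higher at day 7, Ppp2r5c, Evl, Yy1 and Wars, and 3 at day 0, Ppp2r5c, Evl and Yy1 (edgeR), beside 0.905% and 1.17% of all genes. The shift was not limited to these neighbours: the 126 tested genes within 10 Mb had a difference of medians of 0.69 at each day, with Kmt2d-/- libraries at 0.33 to 0.47 and Kmt2d+/+ libraries at -0.36 to -0.21 on the log2 scale. Gm38393, chosen after its values were seen, is annotated on chromosome 7 at 59974149 to 60005064 and stood at 119.5, 56.8 and 63.2 CPM in Kmt2d+/+ and 29.3 and 44.9 CPM in Kmt2d-/- at day 7 (log2 fold change -1.11, edgeR adjusted p = 0.152).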
